A study of Mus musculus with 8 samples.

Results

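Wild-type mouse macrophages given bacterial lipopolysaccharide (LPS) for 24 h were set against the same kind of cells given LPS for 6 h, without EGTA, on 1 array each. These are 2 of the 8 arrays of the series, and the comparison sets late against early gene expression after 1 stimulus. The series was designed around calcium: it contrasts conditions in which LPS can raise cell calcium and activate NFAT with conditions in which it cannot. The cells were bone marrow cells of C57BL/6 mice aged 6 to 8 weeks, cultured over 7 days in medium containing M-CSF, which drives marrow cells to become macrophages, and 10% serum. They were then plated with 1 µg/ml of smooth LPS. The other groups used here were wild-type cells with LPS and EGTA, a calcium chelator, for 24 h (2 mM) or 6 h (concentration not given for this sample). CD14-deficient cells came from mice of the same strain and age and had LPS for 24 h or 6 h. Unstimulated cells of both genotypes were harvested 24 h after plating, so they match the 24 h cells in time since plating. No unstimulated array matches the 6 h cells. Values given below as without LPS or before LPS are those of these unstimulated cells, and no cells were measured at a time before LPS was added. They are thus no starting point in time of the LPS courses. A difference between them and the 6 h cells also holds a difference in time since plating. Time with LPS and time since plating therefore cannot be told apart in the 24 h against 6 h difference. The sources used here do not say how many mice gave the cells of a sample. Total RNA was measured on Affymetrix arrays, and each difference between 2 arrays is a single observation without a replicate check and without a p-value.

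LPS is sensed by TLR4 with the help of CD14, which loads it onto the receptor. TLR4 signals through MyD88 to NF-kB and the MAP kinases and through TRIF to interferon beta, so that inflammatory genes are induced first and interferon-stimulated genes through secreted interferon later. Feedback inhibitors, mRNA decay factors and IL-10 then limit the response, while antigen presentation, acute-phase and lipid mediator genes are often induced late. Macrophages grown in M-CSF are also dividing cells, and LPS is known to stop their proliferation.

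The RNA integrity number was 9.5 for the 24 h sample and 9.3 for the 6 h sample, and 0.3 µg of RNA gave 52 and 76 µg of labelled cRNA. The deposited intensities had a median of 67.2 at 24 h and 97.7 at 6 h, and the geometric mean of 9 spiked-in control probe sets was 1204 and 1494. For actin, the 3′ to 5′ ratio of probe set intensities was 1.11 and 1.21. Intensities below were quantile normalized over the 8 arrays, with a floor of 38.4, and have no unit. A gene at the floor on 1 array gives a bound, written as at least. All 9 measured macrophage markers were above the level for comparing genes (88.2) on both arrays, with summed intensities of 76914 at 24 h and 72619 at 6 h. Of 9 neutrophil markers, S100a8 and Mmp8 passed that level at 24 h and S100a8 alone at 6 h, with sums of 799 and 438, while Ngp, Ltf and S100a9 were at the floor on both. No B cell, dendritic cell, mast cell or erythroid marker passed it on either array, 1 of 7 T cell markers passed at 6 h only, and 1 of 6 NK cell markers and 2 of 6 endothelial markers passed on both. Of 7 fibroblast markers only Dcn passed, at 192 after 24 h and at the floor after 6 h. Fewer cells of a type and less RNA per cell cannot be told apart in such bulk samples.

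Over 6835 genes compared, 376 (5.5%) were at least 2-fold higher at 24 h than at 6 h and 380 (5.56%) at least 2-fold lower. At least 4-fold differences were seen in 31 and 41 genes. The median gene lay at a log2 difference of 0.02 and the central 95% of genes between -1.33 and 1.31. In 76 of the called genes 1 array was at the floor. The even split rests on normalization: with the intensities as deposited, 110 genes were higher and 1269 lower, and the median of all genes shifted by -0.51. With arrays scaled to equal medians the counts were 422 and 379. Of the genes near the level for comparison, Tesk2 just passed it with 88.2 at 24 h and Fbxl6 just missed it with 88.1. Near the 2-fold line, P2rx4 was called and Mcm2 was not, each with a log2 difference of 1.00 to 2 decimals, and on the low side Gng10 was called and Poglut2 was not. Changes below are relative to the median gene, and list medians whose sign turns with the scaling are marked. Counts of list members are to be read against 5.5% and 5.56%. For counts with EGTA the shares over all genes were 5.6% higher and 6.14% lower. In CD14-deficient cells they were 4.32% and 6.16%.

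**Figure D1:**
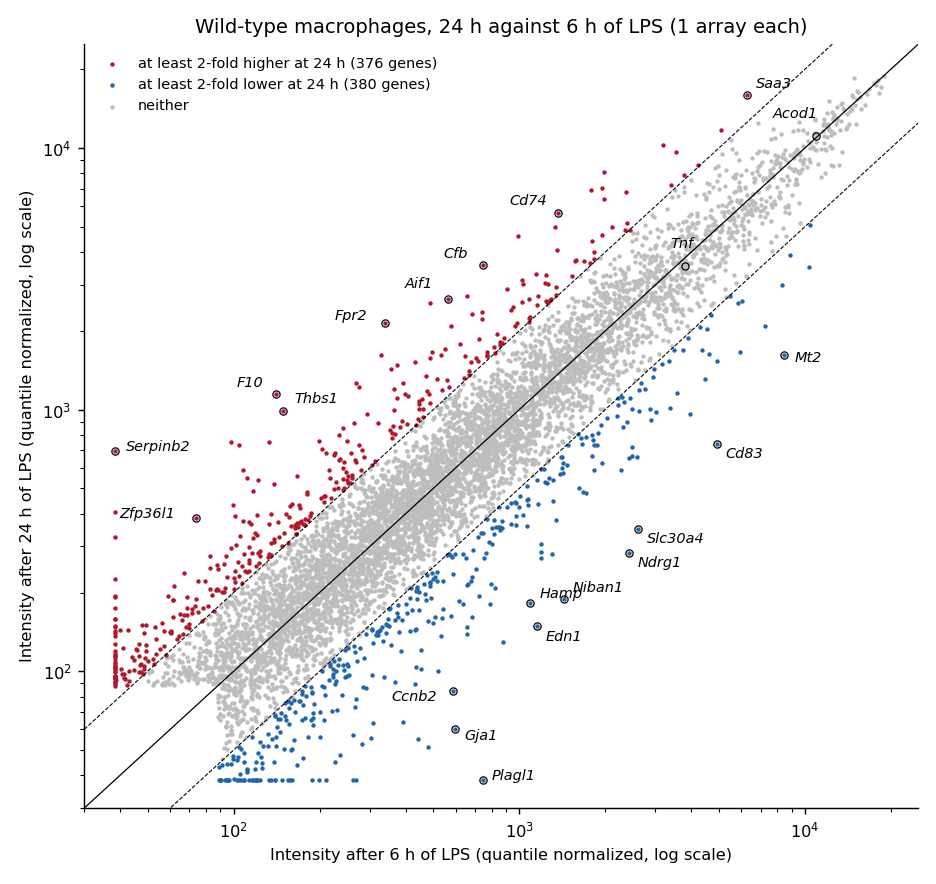
Intensity of each of the 6835 compared genes after 24 h of LPS (vertical) and after 6 h (horizontal) in wild-type macrophages, 1 array each, both axes logarithmic. Dashed lines mark 2-fold differences, red genes are higher and blue genes lower at 24 h, and points on the lines at the left and bottom edges are at the floor of 38.4. Serpinb2, F10 and Fpr2 lie far above the diagonal and Plagl1, Gja1 and Ndrg1 far below it, while Tnf and Acod1 lie on it.

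Among the largest increases between the times were genes of secreted coagulation, protease inhibitor and matrix proteins and a chemoattractant receptor gene. F10 encodes coagulation factor X and stood at 112 without LPS, at 141 after 6 h and at 1147 after 24 h. It was 8.12-fold higher at 24 h than at 6 h. The other 2 bright probe sets of F10 had log2 differences of 1.85 and 2.84. F10 was also higher at 24 h in the other pairs, at 1948 after 24 h against 205 after 6 h with EGTA, and at 1865 after 24 h against 740.2 after 6 h in CD14-deficient cells. Serpinb2 encodes an inhibitor of plasminogen activators. It was at the floor before LPS, at the floor after 6 h and at 693 after 24 h, which is at least 18.1-fold higher. In the other pairs Serpinb2 was at 88.5 after 24 h against the floor after 6 h with EGTA, and at 169.7 after 24 h against 275 after 6 h in CD14-deficient cells. The wild-type and EGTA differences of Serpinb2 are both bounds, so their sizes cannot be compared. Thbs1, which encodes the matrix protein thrombospondin 1, stood at 58.1 before LPS, at 149 after 6 h and at 992 after 24 h (6.65-fold higher), and its other bright probe set had a log2 difference of 2.32. With EGTA Thbs1 was 5.19-fold higher, but in CD14-deficient cells it was 2.82-fold lower, at 92.1 after 24 h against 259.5 after 6 h. Fpr2 encodes a formyl peptide receptor through which phagocytes sense bacterial and host peptides. It was at 42.4 without LPS, at 339.9 after 6 h and at 2136 after 24 h. Fpr2 was 6.28-fold higher at 24 h than at 6 h, 7.01-fold with EGTA and 3.67-fold in CD14-deficient cells. Among 17 compared protease, inhibitor and matrix genes, 4 were higher and 3 lower with a median of 0.02 (-0.41 as deposited, 0.17 at equal medians). The other 2 that were higher were the membrane metalloproteinase gene Mmp14, at 2655 after 24 h against 1082 after 6 h, and Mmp19, at 201 after 24 h against 91.0 after 6 h. Lower were Plaur, the urokinase receptor gene, at 482 after 24 h against 1713 after 6 h, Cd44, a hyaluronan receptor gene, at 3509 after 24 h against 10324 after 6 h, and the collagenase gene Mmp13, at 5077 after 24 h against 10418 after 6 h.

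Acute-phase and antimicrobial genes had the highest median of the 44 lists with at least 5 compared members. Of 8 compared acute-phase and antimicrobial genes, 6 lay 2-fold or more above the 6 h level and 1 as far below it, and the median log2 difference was 1.29 (0.90 as deposited, 1.44 at equal medians). The other 8 members did not reach the level for comparison. With EGTA 6 of the compared members were higher and 1 lower (median 1.22), beside 5.6% and 6.14% of all genes. In CD14-deficient cells 3 were higher and 1 lower (median 0.38), beside 4.32% and 6.16%. S100a8, a calcium-binding alarmin subunit, stood at 138 before LPS, at 99.7 after 6 h and at 432 after 24 h. Slpi, an inhibitor of neutrophil elastase, was at 59.8 before LPS, at 47.7 after 6 h and at 151 after 24 h, and Slc11a1, the phagosomal metal transporter Nramp1, stood at 2523 before LPS, at 1027 after 6 h and at 3138 after 24 h. Saa3, an acute-phase apolipoprotein, reached 15887 after 24 h against 6260.3 after 6 h, and the siderophore-binding protein gene Lcn2 908 against 388. Cp, the gene of the copper oxidase ceruloplasmin, was at 541 after 24 h against 241 after 6 h. Lyz2, lysozyme, was high at both times, at 12781 after 24 h against 12563 after 6 h. Hamp went the other way: the gene of hepcidin, the hormone that closes the iron exporter, stood at the floor before LPS, at 1095 after 6 h and at 182 after 24 h (6.02-fold lower), and its other bright probe set gave a log2 difference of -2.43. Hamp was lower at 24 h in both other pairs too, by 7.29-fold with EGTA and by at least 6.51-fold in CD14-deficient cells. Of 7 complement genes compared, 1 was at least 2-fold higher and 0 lower, with a median of 0.16, or -0.19 as deposited. That gene was Cfb, factor B of the alternative pathway, which was at 79.7 before LPS, at 748 after 6 h and at 3575 after 24 h. In the other pairs Cfb was at 4019 after 24 h against 813 after 6 h with EGTA, and at 4707 after 24 h against 1119 after 6 h in CD14-deficient cells.

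Part of the MHC class II presentation genes were higher at 24 h. Of 11 compared class II presentation genes, 5 lay 2-fold or more above the 6 h level and none as far below it, and the median log2 difference was 0.37 (0.03 as deposited, 0.57 at equal medians). The 5 were the class II chain genes H2-Aa, H2-Ab1 and H2-Eb1, Cd74, which encodes the invariant chain that guards the groove, and H2-DMa, a chain of the peptide editor. Cd74 stood at 2851 before LPS, at 1367 after 6 h and at 5667 after 24 h. H2-Ab1 was at 928 before LPS, at 575 after 6 h and at 2089 after 24 h, and its other 2 bright probe sets had log2 differences of 2.27 and 2.41. H2-Eb1 stood at 605 before LPS, at 356 after 6 h and at 1425 after 24 h. All 3 were thus lower at 6 h than without LPS and highest at 24 h in wild type. In CD14-deficient cells Cd74 was at 508 without LPS, below the wild-type value, at 1079.8 after 6 h and at 2602 after 24 h. Ciita, the master regulator of class II transcription, was dim, at 116 after 24 h against 89.6 after 6 h, and the cathepsin genes Ctss and Ctsl had log2 differences of 0.14 and 0.03. Class I processing genes were shifted less: none of 15 was at least 2-fold different, but 13 lay above 0 with a median of 0.31 (0.06 as deposited, 0.60 at equal medians). Highest among them were the peptide transporter gene Tap2, at 3439 after 24 h against 1725 after 6 h, and the immunoproteasome gene Psmb9, at 7126 after 24 h against 3787 after 6 h. The 31 constitutive proteasome genes had a median of 0.24, which turned to -0.21 as deposited, and none differed 2-fold.

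Prostaglandin genes were divided. Ptges encodes the terminal synthase of prostaglandin E2 and was at 69.1 before LPS, at 657 after 6 h and at 2711 after 24 h (4.13-fold higher), while Ptgs2, the inducible cyclooxygenase ahead of it, stood at the floor before LPS, at 1612 after 6 h and at 1068 after 24 h. The receptor genes Ptger4 and Ptger2 were at 1050.4 and 94.5 after 24 h, against 447 and the floor after 6 h. Ltc4s, the leukotriene C4 synthase gene, was lower, at 44.9 after 24 h against 108 after 6 h. Over the list, 3 of 11 compared genes were higher and 1 lower, with a median of -0.30. The late increase of Ptges was 2.28-fold with EGTA and 1.14-fold in CD14-deficient cells, where it already was at 1607 after 6 h.

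Several further genes reached their highest wild-type level at 24 h. Slc6a4, the serotonin transporter gene, stood at the floor before LPS, at 107 after 6 h and at 590.0 after 24 h, and in CD14-deficient cells it was at 57.3 after 24 h and at the floor after 6 h. Gstt1, a glutathione transferase gene, was at 52.8 before LPS, at 105 after 6 h and at 730.1 after 24 h. Spic encodes a transcription factor of red pulp and iron-handling macrophages and stood at the floor before LPS, at the floor after 6 h and at 328 after 24 h. Vcam1, an adhesion molecule that binds leukocyte integrins, was at the floor before LPS, at 275 after 6 h and at 1218 after 24 h. Nr1h3, the oxysterol receptor LXR alpha, stood at 169.7 before LPS, at 199 after 6 h and at 761 after 24 h, and Csf3r, the G-CSF receptor gene, at 241 before LPS, at 548 after 6 h and at 1706 after 24 h. All 6 were highest at 24 h. On the unstimulated and the 6 h array Spic was at the floor, and Nr1h3 differed little between these arrays. Il18bp, which encodes the soluble decoy receptor of interleukin 18, was at 674 before LPS, at 740.0 after 6 h and at 2365 after 24 h and was 3.20-fold higher at 24 h than at 6 h. Nupr1, a stress-induced chromatin protein gene, stood at 179 before LPS, at 742 after 6 h and at 2222 after 24 h.

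A second group of increases was of genes that were lower at 6 h than in unstimulated cells. The single wild-type 6 h array enters both differences, so a low reading on that array alone would give the same course. The 6 h position on arrays outside the wild-type pair is given further below. Zfp36l1 encodes an mRNA decay factor and was at 875 before LPS, at 73.6 after 6 h and at 385 after 24 h (5.23-fold higher). Itsn1, an endocytic scaffold gene, stood at 885 before LPS, at 133 after 6 h and at 750.5 after 24 h, and its other 3 bright probe sets had log2 differences between 2.12 and 2.65. Metrnl, a secreted factor gene, was at 4465 before LPS, at 488 after 6 h and at 2549 after 24 h. Nfam1, an ITAM-bearing receptor gene, stood at 774 before LPS, at 111 after 6 h and at 548 after 24 h, and the long non-coding RNA gene Dleu2 at 201 before LPS, at 98.2 after 6 h and at 754 after 24 h. Cebpa, a myeloid transcription factor, was at 1235 before LPS, at the floor after 6 h and at 194 after 24 h, at least 5.06-fold higher than at 6 h, and Dbp, a clock-controlled factor, at 214 before LPS, at the floor after 6 h and at 137 after 24 h. Of these 7 genes, Itsn1 and Dbp came within 2-fold of the unstimulated level, as did Metrnl and Nfam1, while Zfp36l1 and Cebpa remained more than 2-fold below it and Dleu2 passed it. All 7 were higher at 24 h in both other pairs as well, Metrnl by only 1.17-fold in CD14-deficient cells. Gpr65, a proton-sensing receptor gene, stood at 771 before LPS, at 268 after 6 h and at 1259.9 after 24 h, and Aif1, which encodes a calcium-binding protein of macrophages, at 1186 before LPS, at 565 after 6 h and at 2658 after 24 h. In a few genes the increase rests on a 6 h value at the floor. Fgd2, an exchange factor gene for CDC42, was at 323 before LPS, at the floor after 6 h and at 406 after 24 h, with CD14-deficient cells at 449.6 after 24 h against the floor after 6 h. Zap70, a kinase gene known from T cell receptor signalling, stood at 125 before LPS, at the floor after 6 h and at 225 after 24 h, and the wild-type 6 h array was the only one of the 8 with Zap70 at the floor. On the other 7 arrays it lay between 125 and 270.3. Ets2, a transcription factor gene, was at 404 before LPS, at 279.6 after 6 h and at 588 after 24 h.

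Immediate early genes, which growth factors induce within minutes, were likewise in part lower at 6 h than in unstimulated cells, with the same limit of a shared 6 h array. Egr1 stood at 2175 before LPS, at 225 after 6 h and at 673 after 24 h, Fos at 4044 before LPS, at 1347 after 6 h and at 2948 after 24 h and Klf2 at 368 before LPS, at 94.8 after 6 h and at 229 after 24 h. Of 13 compared immediate early genes, 3 lay 2-fold or more above the 6 h level and none as far below it, and the median log2 difference was 0.38, or -0.08 as deposited. Sesn1, a p53- and FOXO-regulated stress gene, was at 1283 before LPS, at 61.9 after 6 h and at 211 after 24 h, and Pmaip1, which encodes the death inducer Noxa, at 406 before LPS, at 258 after 6 h and at 685 after 24 h. They were the 2 of 14 compared p53 targets that were called higher; none was lower, and the median was 0.12 (-0.39 as deposited). Hmox1, heme oxygenase, stood at 4353 before LPS, at 1801 after 6 h and at 4400.0 after 24 h, and at 24 h was close to its unstimulated value. Ddit3, the stress factor CHOP, was at 1070.0 before LPS, at 533 after 6 h and at 1612 after 24 h.

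**Figure D2:**
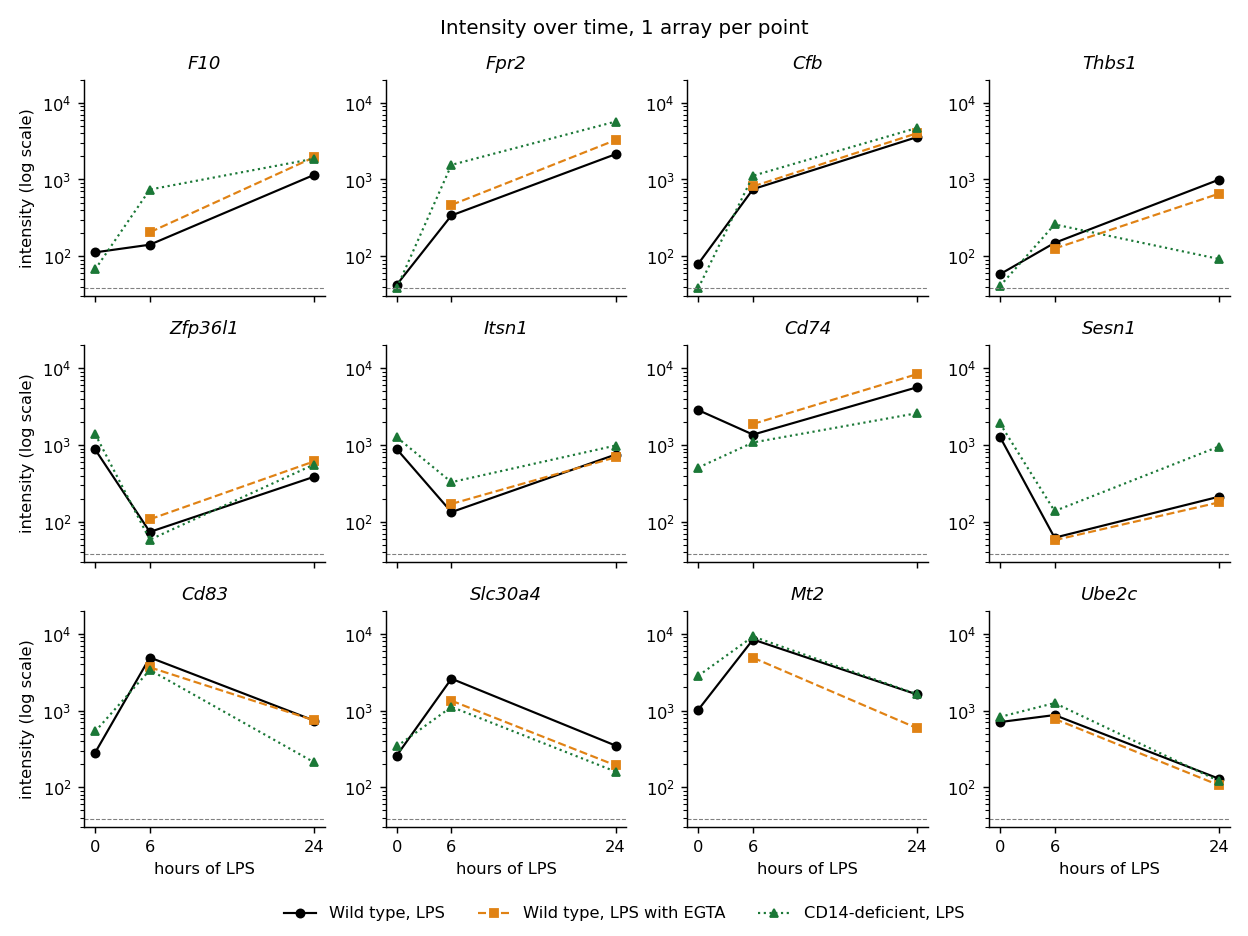
Intensity (vertical, logarithmic) of 12 genes without LPS and after 6 h and 24 h (horizontal) in wild-type cells, wild-type cells with EGTA, which have no array without LPS, and CD14-deficient cells, 1 array per point, with the floor of 38.4 dashed. Points without LPS, at the left, are from unstimulated cells harvested 24 h after plating and are no starting point in time. The top row holds genes highest at 24 h in wild type, the middle row genes lowest at 6 h, and the bottom row genes lower at 24 h than at 6 h. Thbs1 goes down in CD14-deficient cells between 6 h and 24 h, to 92.1, where both wild-type series go up.

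Many of the largest decreases were in genes that had been higher at 6 h than without LPS. The single wild-type 6 h array enters both differences, so a high reading on that array alone would give the same course. Gja1, the gap junction protein connexin 43, stood at the floor before LPS, at 596 after 6 h and at 59.9 after 24 h (9.95-fold lower), and the other 4 bright probe sets of Gja1 had log2 differences between -3.57 and -1.76. Plagl1, a zinc finger growth inhibitor gene, was at the floor before LPS, at 746 after 6 h and at the floor after 24 h, at least 19.4-fold lower. Edn1, the vasoconstrictor endothelin 1, stood at the floor before LPS, at 1155 after 6 h and at 149 after 24 h. These 3 genes were lower at 24 h than at 6 h in both other conditions as well, and the CD14-deficient arrays read the floor after 24 h against 215 after 6 h for Plagl1 and 46.2 against 1157 for Edn1. Cd83, a maturation marker that steadies MHC class II on the surface, was at 283 before LPS, at 4921 after 6 h and at 742 after 24 h (6.63-fold lower). Niban1, a stress-induced gene, stood at 160.5 before LPS, at 1435 after 6 h and at 188 after 24 h. Sphk1, which makes sphingosine 1-phosphate, was at the floor before LPS, at 262 after 6 h and at the floor after 24 h, and Rras2, a RAS-related GTPase gene, at 46.8 before LPS, at 269 after 6 h and at the floor after 24 h. Tnfrsf12a, the receptor of the cytokine TWEAK, stood at 97.5 before LPS, at 211 after 6 h and at the floor after 24 h. Itgav, an integrin chain gene, was at 1275 before LPS, at 3738 after 6 h and at 1693 after 24 h, and Il17ra, an interleukin 17 receptor chain gene, at 134 before LPS, at 486 after 6 h and at 211 after 24 h. Stat5a, a transcription factor that cytokines such as GM-CSF activate, stood at 262 before LPS, at 1190.3 after 6 h and at 307 after 24 h, and Ccnd2, cyclin D2, at 242 before LPS, at 2393 after 6 h and at 895 after 24 h. Rcan1, an NFAT target gene whose product inhibits calcineurin, was at 356 before LPS, at 1311 after 6 h and at 449.7 after 24 h. Rcan1 was 2.92-fold lower at 24 h than at 6 h, 2.02-fold lower with EGTA and 3.65-fold lower in CD14-deficient cells. In a few genes the 24 h level was below the unstimulated one. Ndrg1, a hypoxia- and differentiation-induced gene, stood at 821 before LPS, at 2419.6 after 6 h and at 284 after 24 h (8.52-fold lower), with the other 4 bright probe sets between -3.30 and -2.97 in log2 difference. Abcb1b, a multidrug transporter gene, was at 243 before LPS, at 443 after 6 h and at 55.3 after 24 h, and Mrc1, the mannose receptor, at 5738 before LPS, at 5920.1 after 6 h and at 1656 after 24 h.

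Metallothioneins, which bind zinc, and zinc transporters were lower at 24 h in large part. Of 10 compared genes of these families, none lay 2-fold or more above the 6 h level and 6 as far below it, and the median log2 difference was -1.01 (-1.61 as deposited, -1.07 at equal medians). Mt2 stood at 1027 before LPS, at 8446 after 6 h and at 1621 after 24 h and Mt1 at 3358 before LPS, at 8311 after 6 h and at 2992 after 24 h. Slc30a4, which moves zinc into vesicles, was at 259 before LPS, at 2606 after 6 h and at 349.8 after 24 h. In the other pairs Slc30a4 was at 193 after 24 h against 1346 after 6 h with EGTA, and at 160.1 after 24 h against 1117 after 6 h in CD14-deficient cells. The importer genes Slc39a14 and Slc39a6 had log2 differences of -1.14 and -1.02, and the exporter gene Slc30a1 one of -1.01. Mtf1, the zinc-sensing transcription factor that drives metallothionein genes, stood at 193 after 24 h against 176 after 6 h. In wild-type cells with EGTA, Mt2 was 8.30-fold lower. The list as a whole differed less in the other pairs. With EGTA 3 members were lower (median -0.58), beside 6.14% of all genes. In CD14-deficient cells 4 were lower (median -0.55), beside 6.16%. Among 14 iron and heme genes, 3 were higher and 2 lower; the transferrin receptor gene Tfrc was at 721 after 24 h against 2473 after 6 h and the iron exporter gene Slc40a1 at 137 after 24 h against 154 after 6 h.

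Mitosis and spindle genes formed the list with the lowest median. Of 25 compared mitosis and spindle genes, none lay 2-fold or more above the 6 h level and 19 as far below it, and the median log2 difference was -1.31 (-1.81 as deposited, -1.29 at equal medians). All 25 passed the level for comparison at 6 h but only 16 passed it at 24 h. Members that passed at 6 h alone could only come out lower. The count of lower members and the median thus rest in part on how genes entered the comparison. A further 11 measured members were below the level for comparison on both arrays. The same list had 21 members lower with EGTA (median -1.47), beside 6.14% of all genes, and 24 lower in CD14-deficient cells (median -2.35), beside 6.16%. Ccnb2, cyclin B2, was at 341 before LPS, at 586 after 6 h and at 84.4 after 24 h. Ube2c, the ubiquitin-conjugating enzyme with which the anaphase-promoting complex works, stood at 708 before LPS, at 874 after 6 h and at 129.7 after 24 h, and the checkpoint kinase gene Bub1 at 306 before LPS, at 236 after 6 h and at 48.1 after 24 h. The decatenating topoisomerase gene Top2a was at 162 after 24 h against 509 after 6 h, Cdc20, an activator of the anaphase-promoting complex, at 42.2 after 24 h against 118 after 6 h, and the mitotic kinase gene Cdk1 at 282 after 24 h against 635 after 6 h. Mki67, the proliferation marker Ki-67, stood at 331 after 24 h against 607 after 6 h, short of 2-fold. Ube2c, Ccnb2 and Bub1 were thus within 2-fold of the unstimulated level at 6 h and well below it at 24 h. Tpx2, a spindle assembly factor gene, was the one member above 0, at 259 before LPS, at 1268 after 6 h and at 1982 after 24 h. DNA replication genes, which act earlier in the cycle, were mixed. Of 23 compared DNA replication and S-phase genes, 1 lay 2-fold or more above the 6 h level and 2 as far below it, and the median log2 difference was -0.03 (-0.58 as deposited, -0.04 at equal medians, -0.60 with EGTA and -0.69 in CD14-deficient cells). The S-phase genes Tk1, thymidine kinase, and Pola1, a polymerase subunit, were lower, at 50.2 and 57.7 after 24 h against 159 and 132 after 6 h. E2f1, a factor that drives S-phase genes, was higher, at 361 after 24 h against 159 after 6 h. Mcm2, a helicase subunit gene, had a log2 difference of 1.00, and -0.34 and -0.56 in the other pairs.

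Promoters of the mitosis genes often held sequence motifs that the choice of the list did not use. Many such promoters carry a CHR element, TTTGAA, read by the DREAM and MuvB complexes, and CCAAT boxes, bound by NF-Y. Both were searched on both strands of RefSeq promoters (GRCm38.p6, 250 bases before to 50 after the start), and a match is a description, not a site of binding. TTTGAA was found in 16 of the 22 mitosis promoters in the table (72.7%), against 11.5% of 5638 compared genes and 18.1% of 27025 promoters. CCAAT was found in 72.7%, against 38.8% and 37.9%, and both in 68.2%, against 4.66% and 7.12%. Within the 250 bases before the start alone, TTTGAA was in 40.9%, against 10.4% of compared genes. Both motifs were there in 40.9% as well, against 3.9%. The share with both motifs was 4.76% of 21 DNA replication promoters. The last 120 bases before the start of 4 mitosis genes are shown, 5′ to 3′ along the gene. They are the 4 with the largest decrease among the list members that hold both motifs in these bases. A match of each motif in every window thus follows from this choice. Capitals mark TTTGAA or its reverse complement TTCAAA and CCAAT or its reverse complement ATTGG. The windows lie at chr2:164769809-164769928 (+ strand), chr11:99024190-99024309 (- strand), chr4:118437344-118437463 (- strand) and chr10:69352913-69353032 (- strand).
Ube2c: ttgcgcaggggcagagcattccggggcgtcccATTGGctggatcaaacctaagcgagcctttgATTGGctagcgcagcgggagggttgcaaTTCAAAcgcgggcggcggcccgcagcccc
Top2a: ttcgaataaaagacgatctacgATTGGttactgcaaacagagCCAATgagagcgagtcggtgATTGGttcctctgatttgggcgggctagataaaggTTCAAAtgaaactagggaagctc
Cdc20: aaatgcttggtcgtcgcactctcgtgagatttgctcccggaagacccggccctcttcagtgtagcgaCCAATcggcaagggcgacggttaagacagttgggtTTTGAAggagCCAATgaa
Cdk1: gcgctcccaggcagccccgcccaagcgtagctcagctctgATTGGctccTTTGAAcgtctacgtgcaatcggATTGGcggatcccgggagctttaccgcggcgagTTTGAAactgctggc
In these windows, chosen for holding both motifs, a TTTGAA match lies near the right end with at least 1 CCAAT match ahead of it. Cdk1 has a further TTTGAA match.

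Cholesterol synthesis genes were lower at 24 h as well. Of 19 compared cholesterol synthesis genes, none lay 2-fold or more above the 6 h level and 8 as far below it, and the median log2 difference was -0.82 (-1.40 as deposited, -0.86 at equal medians), and 17 lay below 0. Hmgcs1, the enzyme that makes HMG-CoA, was at 3255 before LPS, at 7245 after 6 h and at 2080.1 after 24 h; its other 3 bright probe sets had log2 differences between -2.28 and -1.78. Sqle, squalene epoxidase, stood at 1794 before LPS, at 1614 after 6 h and at 504 after 24 h, and Fdps, farnesyl diphosphate synthase, at 2394 before LPS, at 3565 after 6 h and at 1158 after 24 h. Averaged over all its probe sets, the log2 difference of Fdps was -0.81, short of 2-fold. The sterol demethylase gene Cyp51, the squalene synthase gene Fdft1 and the isomerase gene Idi1 had log2 differences of -1.32, -1.26 and -1.19. Srebf2, the sterol-sensing transcription factor of the pathway, was at 429 after 24 h against 489.7 after 6 h. The summed intensity of the list was 13204 at 24 h and 28678 at 6 h. With EGTA the list had 0 members lower and a median of -0.08, with Hmgcs1 at 4975 after 24 h against 6031 after 6 h. In CD14-deficient cells 1 member was lower and 1 higher, with a median of -0.24 and Hmgcs1 at 4227 after 24 h against 7740.1 after 6 h. The median of this list was thus lower in the wild-type pair than in either other pair, a difference that rests on single arrays and was not tested.

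Of 15 cholesterol gene promoters in the same table, 14 held CCAAT (93.3%), against 38.8% of compared genes, and 6.67% held TTTGAA. Sterol-responsive promoters are known to pair a sterol element with an NF-Y box. The last 120 bases before the start of Hmgcs1 (chr13:119690231-119690350, + strand) and Cyp51 (chr5:4104698-4104817, - strand) are shown for comparison with the mitosis genes. CCAAT or its reverse complement ATTGG is in capitals. These genes had the largest decreases among the list members with a CCAAT match in these bases, so its presence follows from the choice.
Hmgcs1: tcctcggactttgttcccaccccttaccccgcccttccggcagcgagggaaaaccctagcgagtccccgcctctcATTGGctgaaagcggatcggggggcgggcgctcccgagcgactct
Cyp51: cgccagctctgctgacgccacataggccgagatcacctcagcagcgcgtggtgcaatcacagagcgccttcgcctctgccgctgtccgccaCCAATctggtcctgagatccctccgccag
Each has a single CCAAT match in these bases, the one it was chosen for, and neither has a TTTGAA match.

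Fatty acid genes went partly with them. Scd2, a stearoyl-CoA desaturase gene, stood at 4625 before LPS, at 2424 after 6 h and at 655 after 24 h, Fasn, fatty acid synthase, at 340.1 before LPS, at 201 after 6 h and at 56.3 after 24 h, and Fads2, a further desaturase gene, at 100.2 after 24 h against 229 after 6 h. They were the 3 lower members of 15, with 1 higher and a median of -0.39. With EGTA Scd2 was at 1863 after 24 h against 2243 after 6 h, and in CD14-deficient cells it was higher, at 7017 after 24 h against 3431 after 6 h. Of 14 compared genes of cholesterol export and handling, 2 lay 2-fold or more above the 6 h level and none as far below it, and the median log2 difference was 0.29 (-0.06 as deposited), led by Nr1h3. The exporter genes Abca1 and Abcg1 had log2 differences of 0.37 and 0.58.

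Glycolysis and hypoxia genes were lower in part. Of 20 compared glycolysis and hypoxia genes, 1 lay 2-fold or more above the 6 h level and 6 as far below it, and the median log2 difference was -0.40 (-0.78 as deposited, -0.24 at equal medians). The 6 were Ak4, Pdk1, Pfkp, Slc2a1, Hk2 and Vegfa. Ak4, a mitochondrial adenylate kinase gene, was at 58.9 before LPS, at 519.9 after 6 h and at 100.5 after 24 h. Pfkp, a phosphofructokinase gene, stood at 801 before LPS, at 1671 after 6 h and at 485 after 24 h, and Slc2a1, the glucose transporter GLUT1, at 1083 before LPS, at 2903 after 6 h and at 916 after 24 h. Hk2, hexokinase 2, was at 817 before LPS, at 1832 after 6 h and at 587 after 24 h. Enzymes of lower glycolysis differed less, with Ldha, lactate dehydrogenase, at 7526 after 24 h against 8827 after 6 h and Pgk1 at 7291 after 24 h against 9391 after 6 h. Pdk1, a kinase that inhibits pyruvate dehydrogenase, stood at 758 before LPS, at 799 after 6 h and at 216 after 24 h. In the other pairs Pdk1 was at 325 after 24 h against 652 after 6 h with EGTA, and at 795 after 24 h against 789 after 6 h in CD14-deficient cells. The single higher gene was Slc2a3, the glucose transporter GLUT3, at 138 after 24 h against 66.5 after 6 h in wild type. With EGTA 5 members of the glycolysis and hypoxia list were lower (median -0.35), beside 6.14% of all genes. In CD14-deficient cells 2 were lower, beside 6.16%, and the median was 0.16, above 0. Of 22 compared tricarboxylic acid cycle genes, none lay 2-fold or more above the 6 h level and 2 as far below it, and the median log2 difference was -0.15 (-0.63 as deposited, -0.09 at equal medians). The 2 were Idh2 and Idh3a, isocitrate dehydrogenase genes, at 154 and 346 after 24 h against 501 and 859.8 after 6 h. In CD14-deficient cells the log2 differences of Idh2 and Idh3a were -0.36 and -0.17. Of the respiratory chain genes, none of 38 differed 2-fold, with a median of -0.04 (-0.45 as deposited, 0.09 at equal medians).

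Growth-related lists leaned low in wild type with few calls. Odc1 and Srm, the first enzymes of polyamine synthesis, was at 1314 and 128 after 24 h against 4485 and 309 after 6 h. Of 20 ribosome biogenesis genes, 3 lay 2-fold or more below the 6 h level, none as far above it, and the median was -0.44 (-0.92 as deposited, -0.44 at equal medians). They were Gar1, Nhp2 and Npm1, the nucleophosmin gene, at 1493 after 24 h against 3153 after 6 h. Of 24 ribosomal protein genes none differed 2-fold, and 22 lay below 0 and none above, with a median of -0.27, but with equal medians it was 0.00. G1 regulators had 1 higher and 2 lower members of 16 and a median of -0.48 (-1.03 as deposited, -0.49 at equal medians). With EGTA the ribosome biogenesis, ribosomal protein and G1 medians were -0.21, -0.16 and -0.69. In CD14-deficient cells they were 0.19, -0.08 and -0.19. Ccnd3, cyclin D3, was higher, at 835 after 24 h against 353 after 6 h, and Cdkn2d, an inhibitor of cyclin D kinases, lower, at 871 after 24 h against 1929 after 6 h. Endoplasmic reticulum chaperone and unfolded protein response genes had no member at least 2-fold different of 21, with a median of -0.01 (-0.39 as deposited, 0.14 at equal medians).

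**Figure D3:**
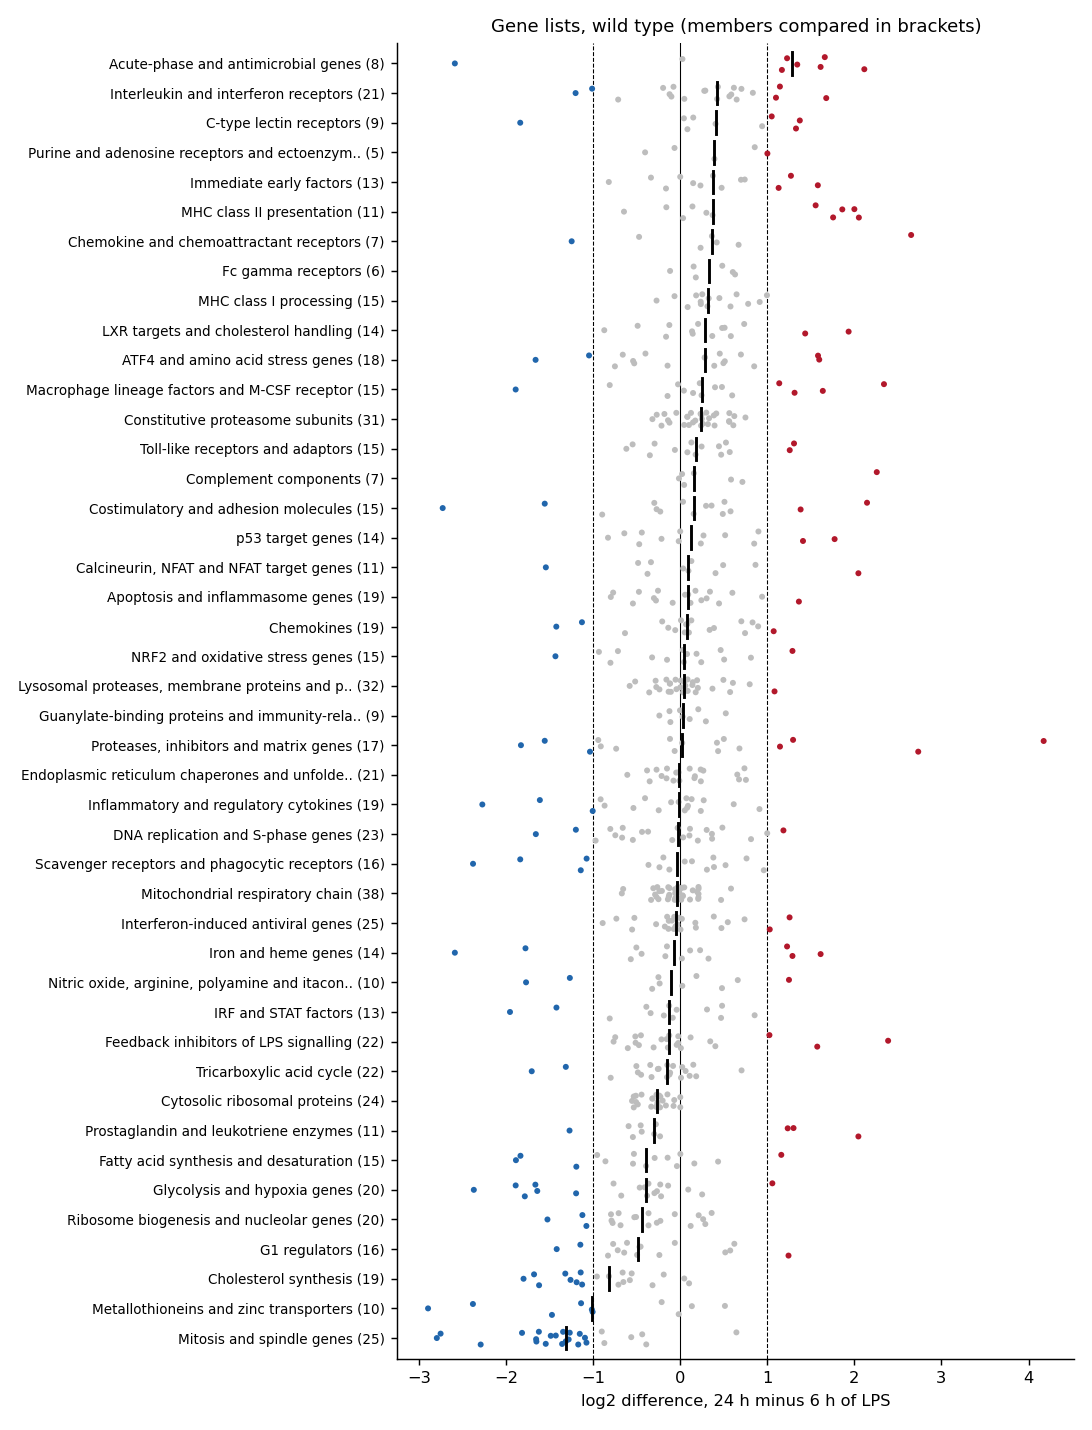
Log2 difference of 24 h minus 6 h of LPS in wild-type macrophages (horizontal) for each compared member of 44 gene lists (rows, with the number of compared members), 1 array per time. Dots are genes, red at least 2-fold higher and blue at least 2-fold lower, black bars are list medians and dashed lines mark 2-fold. Acute-phase and antimicrobial genes have the highest median, 1.29, and mitosis and spindle genes the lowest, -1.31.

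Many of the LPS-induced inflammatory genes stood at about the same level at both times. Tnf was at 319.6 before LPS, at 3802 after 6 h and at 3535 after 24 h, Il1b at 101 before LPS, at 4472 after 6 h and at 5388 after 24 h and the interleukin 1 receptor antagonist gene Il1rn at 6786 before LPS, at 12631 after 6 h and at 13344 after 24 h. Nos2, the inducible nitric oxide synthase, stood at the floor before LPS, at 832 after 6 h and at 699 after 24 h, and Acod1, which makes itaconate, at 629 before LPS, at 10967 after 6 h and at 11146 after 24 h. Their log2 differences lay between -0.25 and 0.27. Of 19 compared cytokine genes, none lay 2-fold or more above the 6 h level and 3 as far below it, and the median log2 difference was -0.02 (-0.49 as deposited, 0.05 at equal medians). The 3 lower ones were Il12b, a subunit of interleukins 12 and 23, which was at the floor before LPS, at 307 after 6 h and at 63.4 after 24 h, the alarmin gene Il33, at the floor before LPS, at 661 after 6 h and at 216 after 24 h, and the anti-inflammatory cytokine gene Il10, at 92.5 before LPS, at 2223 after 6 h and at 1107 after 24 h. Il6 stood at the floor before LPS, at 1538 after 6 h and at 816 after 24 h, short of 2-fold. In CD14-deficient cells the same list had 9 lower members, beside 6.16% of all genes, and a median of -0.97. There Tnf was at 2360.0 after 24 h against 8213 after 6 h and Il6 at 131 after 24 h against 2510.2 after 6 h. With EGTA 5 members were lower, beside 6.14% of all genes, and the median was -0.34.

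Chemokine genes were mostly level too, with 1 higher and 2 lower of 19 and a median of 0.08 (-0.19 as deposited, 0.35 at equal medians). Cxcl10, an attractant of T cells, was at 511 before LPS, at 14314 after 6 h and at 12396 after 24 h and Ccl5 at 7558 before LPS, at 11601 after 6 h and at 12268 after 24 h. Cxcl1, an attractant of neutrophils, was lower, at 159 after 24 h against 348 after 6 h, and in CD14-deficient cells it was at 116 against 2115. Cx3cl1, fractalkine, was at the floor after 24 h against 103 after 6 h, and the single higher gene was Ccl17, at 281 after 24 h against 133 after 6 h. Of 25 compared interferon-induced antiviral genes, 2 lay 2-fold or more above the 6 h level and none as far below it, and the median log2 difference was -0.05 (-0.26 as deposited, 0.28 at equal medians). The 2 higher were Oas3, an activator of RNase L, at 3021 after 24 h against 1265 after 6 h, and Bst2, the virus tether tetherin, at 8611 after 24 h against 4224 after 6 h. Parp14, an ADP-ribosyltransferase gene, was at 4627 after 24 h against 8583 after 6 h. Ifit1 and Mx1 had log2 differences of -0.14 and -0.28. Ifnb1, interferon beta itself, stood at the floor before LPS, at 214 after 6 h and at 224 after 24 h. None of 9 guanylate-binding and immunity-related GTPase genes differed 2-fold, and they ranged from -0.24 to 0.52. Gbp6 was the highest of them, at 955 before LPS, at 4526 after 6 h and at 6503 after 24 h. Irf7, an amplifier of the interferon response, was at 6118 before LPS, at 6881 after 6 h and at 12439 after 24 h, while Irf4 and Stat5a were the 2 lower of 13 IRF and STAT genes. Unstimulated CD14-deficient cells had Irf7 at 188, and Gbp6 at 52.3. Bst2 was at 5958 in unstimulated wild-type and 1118 in unstimulated CD14-deficient cells, and Oas3 at 1667 and 243. For such genes the wild-type value without LPS was thus already high, and its cause was not tested. Ifnb1 was at the floor on both unstimulated arrays.

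Feedback inhibitors that LPS induces were near the same level at both times in wild type. Nfkbia, which encodes the NF-kB inhibitor I-kappa-B alpha, stood at 4893 before LPS, at 11662 after 6 h and at 10465 after 24 h, and Socs3, an inhibitor of cytokine receptors, at 432 before LPS, at 8136 after 6 h and at 6579 after 24 h. Tnfaip3, the ubiquitin editor A20, was at 1902 after 24 h against 2602 after 6 h. Of 22 compared feedback inhibitor genes, 3 lay 2-fold or more above the 6 h level and none as far below it, and the median log2 difference was -0.13 (-0.54 as deposited, 0.00 at equal medians). The 3 higher were Zfp36l1, Trib1 and the ERK phosphatase gene Dusp6, which stood at 1707 before LPS, at 148 after 6 h and at 301 after 24 h, and all 3 were lower at 6 h than without LPS. In CD14-deficient cells 9 members were lower and 2 higher, beside 6.16% and 4.32% of all genes, with a median of -0.86. There Socs3 was at 3135 after 24 h against 7439 after 6 h. NF-kB subunit genes had no 2-fold difference in wild type among 4, with Relb at 795 after 24 h against 504 after 6 h, and Rel and Nfkb2 were the 2 lower ones in CD14-deficient cells.

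Receptors of the macrophage surface changed singly. Cd40 and Cd86, costimulatory molecules, was at 5186 and 4273 after 24 h against 9655 and 3006 after 6 h. Of 15 compared costimulatory and adhesion genes, 2 lay 2-fold or more above the 6 h level and 2 as far below it, and the median log2 difference was 0.15 (-0.36 as deposited). Beside Cd83 and Vcam1, the genes called on that list were Cd44, which was lower, and Itgal, an integrin chain, at 100.0 after 24 h against the floor after 6 h. Of 15 Toll-like receptor and adaptor genes 2 were higher, none was lower and the median was 0.18 (-0.36 as deposited, 0.18 at equal medians). Tlr1 stood at 991 before LPS, at 1231 after 6 h and at 3044 after 24 h, and Ly86, the partner of the TLR4 relative CD180, at 2031 before LPS, at 1945 after 6 h and at 4650.4 after 24 h. Tlr2, which pairs with TLR1, was at 647 before LPS, at 4347 after 6 h and at 2829.5 after 24 h, Tlr4 at 1417 before LPS, at 892 after 6 h and at 1213 after 24 h and Cd14 at 3849 before LPS, at 12515 after 6 h and at 8564 after 24 h. Itgal was at 414 after 24 h against 126 after 6 h in CD14-deficient cells. The Fc gamma receptor genes had no 2-fold difference among 6, with 5 above 0 and a median of 0.33 (0.07 as deposited, 0.61 at equal medians). Fcgr1, the high-affinity receptor of IgG, was at 11789.7 after 24 h against 7760.2 after 6 h, and Fcgr4, a further activating receptor, at 8226 after 24 h against 5318 after 6 h. Of 16 scavenger and phagocytic receptor genes, 4 were lower and none higher, with a median of -0.04 (-0.38 as deposited, 0.16 at equal medians). They included Mrc1 and Olr1, an oxidised lipoprotein receptor gene, which stood at the floor before LPS, at 199.8 after 6 h and at the floor after 24 h. Marco, a scavenger receptor gene below the level for comparison in wild type, was at 2158 after 24 h against 298 after 6 h in CD14-deficient cells. C5ar1, the receptor of complement fragment C5a, was at 1807 before LPS, at 1069 after 6 h and at 450.1 after 24 h, the opposite of Fpr2. Csf1r, the M-CSF receptor, was at 9251 after 24 h against 8355 after 6 h, and Spi1, the lineage factor PU.1, at 3846 after 24 h against 2916 after 6 h. Of 15 genes on that list, 4 were higher (Cebpa, Csf3r, Maf and Csf2rb) and 1 lower, namely Bhlhe40, a repressor that stood at 619.8 before LPS, at 721 after 6 h and at 194 after 24 h. Lysosomal genes had 1 higher and 0 lower of 32, apoptosis and inflammasome genes 1 and 0 of 19, with Neu1, a sialidase gene, at 1411 after 24 h against 666 after 6 h and Bak1, a mitochondrial pore protein gene, at 1865 after 24 h against 725 after 6 h. Of 11 calcineurin and NFAT genes, Ptges was higher and Rcan1 lower, with a median of 0.09 (-0.42 as deposited, 0.12 at equal medians).

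The remaining lists had few members at least 2-fold different. Interleukin and interferon receptor genes had 3 higher and 2 lower of 21, with a median of 0.42 that turned to -0.17 as deposited. The higher ones were Il18bp, the kinase gene Tyk2, at 1538 after 24 h against 718 after 6 h, and Il21r, at 243 after 24 h against 109.8 after 6 h. C-type lectin receptor genes had 3 higher and 1 lower of 9, with no member higher as deposited. Clec4n, the fungal sensor dectin 2, was at 1654 before LPS, at 218 after 6 h and at 548 after 24 h, and Cd302, a small lectin receptor gene, at 1062 before LPS, at 949.8 after 6 h and at 2460.1 after 24 h. Among 18 ATF4 and amino acid stress genes, 2 were higher, Ddit3 and Nupr1, and 2 lower, the serine pathway gene Shmt2 and the asparagine synthetase gene Asns, at 65.3 after 24 h against 207 after 6 h and at 239 after 24 h against 493 after 6 h. NRF2 and oxidative stress genes had 1 higher, Hmox1, and 1 lower, the catalase gene Cat, at 665 after 24 h against 1798 after 6 h, of 15. Gclc, which makes the glutathione precursor, was dim, at 215 before LPS, at 103 after 6 h and at 53.7 after 24 h. Of 10 nitric oxide, arginine, polyamine and itaconate genes, Arg2, a mitochondrial arginase gene, was the 1 higher, at 241 after 24 h against 101 after 6 h. Of 7 chemoattractant receptor genes, Fpr2 and C5ar1 were those called. Of 5 purine receptor and ectoenzyme genes the channel gene P2rx4 was higher, at 4877 after 24 h against 2437 after 6 h.

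The position of these genes at 6 h was read from arrays that the wild-type pair does not use. With EGTA, 11.3% of the 6835 compared genes were at least 2-fold higher after 6 h of LPS than in unstimulated wild-type cells, and 8.56% lower. Of the 376 genes higher at 24 h over 6 h in wild type, 119 (31.6%) were lower at 6 h than in unstimulated cells on those arrays and 47 (12.5%) higher. Of the 380 lower genes, 114 (30%) had been higher at 6 h and 27 (7.11%) lower. The EGTA series has no unstimulated array of its own, so the wild-type one was used. Some interferon-related genes were already high on it, such as Irf7 at 6118, against 188 on the unstimulated CD14-deficient array. In CD14-deficient cells, against their own unstimulated array, 10.3% of compared genes were higher at 6 h and 7.17% lower. There, 75 (19.9%) of the genes that were higher in wild type had been lower at 6 h and 83 (22.1%) higher, and 70 (18.4%) of the lower genes had been higher and 46 (12.1%) lower. On the EGTA arrays the genes with a late increase were thus more often lower at 6 h than all compared genes, and those with a late decrease more often higher at 6 h. On the CD14-deficient arrays all 4 shares, in the same and in the opposite direction, were above those over all compared genes. The sizes depend on the scaling. With the intensities as deposited, the lower genes that were higher at 6 h made up 8.59%, against 4.61% of all compared genes, on the EGTA arrays and 8.83%, against 7.09%, on the CD14-deficient arrays. The higher genes that were lower at 6 h then made up 62.7%, against 44.8%, and 28.2%, against 16.1%. Most called genes, between 55.9% and 69.5% in these 4 groups, had not differed 2-fold at 6 h.

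**Figure D4:**
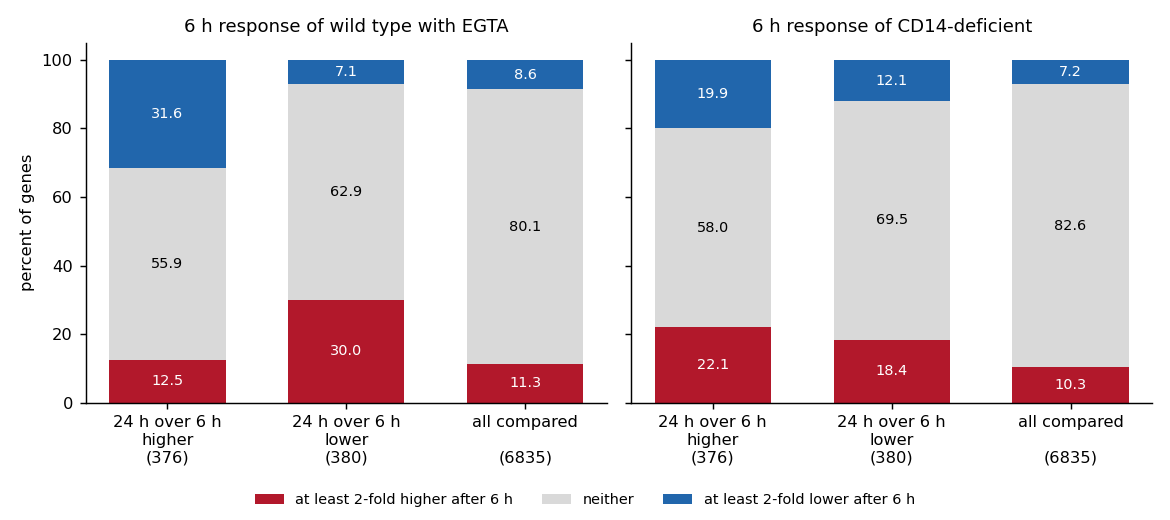
Percent of genes (vertical) at least 2-fold higher (red), lower (blue) or neither (grey) after 6 h of LPS than without LPS, for the 376 genes higher and the 380 lower at 24 h over 6 h in wild-type cells and for all 6835 compared genes. The left panel takes the 6 h response from cells with EGTA and the right panel from CD14-deficient cells, neither of which shares an array with the wild-type pair.

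The 24 h against 6 h difference was also measured in 2 pairs that share no array with the wild-type pair. With EGTA, 386 of 6887 genes were higher (5.6%) and 423 lower (6.14%), and in CD14-deficient cells 295 of 6831 (4.32%) and 421 (6.16%). Over the 6703 genes compared in wild type and with EGTA, 354 were higher in wild type and 346 with EGTA, with 229 in both, which is 64.7% of the wild-type and 66.2% of the EGTA genes. Of 358 and 405 lower genes, 255 were shared (71.2% and 63.0%). The differences correlated across genes with r = 0.85, where genes are not independent replicates and the arrays share the platform and normalization. Over the 6618 genes compared in wild type and CD14-deficient cells, 140 higher genes were shared (42.2% of 332 and 54.7% of 256) and 169 lower (48.3% of 350 and 42.1% of 401), with r = 0.62. These counts and shares also depend on the scaling. With the intensities as deposited 1083 genes were higher and 165 lower with EGTA, the opposite balance to the 110 and 1269 of the wild-type pair, and 513 and 317 in CD14-deficient cells. Of the wild-type higher genes 99.0% were then shared with EGTA and 67.0% with CD14-deficient cells, and of the lower genes 14.7% and 19.2%. In all 3 conditions 106 genes were higher, 28.2% of the 376, and 142 lower, 37.4% of the 380.

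**Figure D5:**
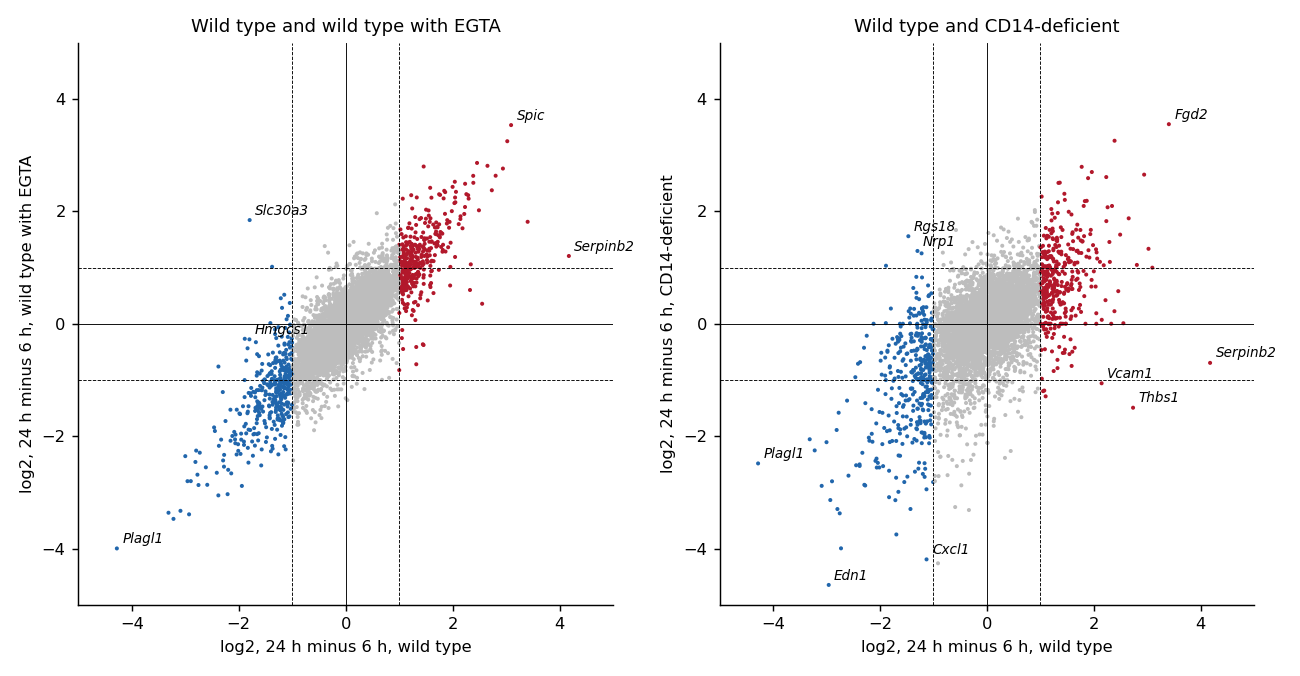
Log2 difference of 24 h minus 6 h of LPS in wild-type cells with EGTA (left panel, vertical) and in CD14-deficient cells (right panel, vertical) against that in wild-type cells (horizontal), 1 gene per dot over the 6835 genes compared in wild type. Red and blue genes are at least 2-fold higher and lower in wild type, and dashed lines mark 2-fold. The cloud lies closer to a line with EGTA (r = 0.85 over the genes compared in both) than in CD14-deficient cells (r = 0.62).

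Opposite 2-fold differences were few. No gene higher in wild type was at least 2-fold lower with EGTA, and 1 lower gene, Slc30a3, was higher there. In CD14-deficient cells 5 of the 332 higher genes were lower and 4 of the 350 lower genes were higher. Thbs1 and Vcam1 were among the 5, with Vcam1 at 165 after 24 h against 344 after 6 h in CD14-deficient cells. The 4 included Scd2. Rgs18, a regulator of G protein signalling, stood at 271 after 24 h against 750.2 after 6 h in wild type and at 1067 after 24 h against 363 after 6 h in CD14-deficient cells. Nrp1, a co-receptor of semaphorins and VEGF, was at 355 after 24 h against 872 after 6 h in wild type and at 1591 after 24 h against 649 after 6 h in CD14-deficient cells. None of these differences between genotypes was tested, since each rests on 4 single arrays.

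A limma fit of time with condition as an additive term over the 6 LPS arrays gave the only test of this contrast. Its 2 residual degrees of freedom measure how far the time difference departs from being equal in the 3 conditions, not the spread between cultures. Of 7144 genes, 828 rose (11.6%) and 669 fell (9.36%) between 6 h and 24 h at an adjusted p under 0.05. By this fit Dleu2 rose (log2 difference 2.78 ± 0.12 (SE), adjusted p = 0.0041), and Cfb did too (log2 difference 2.21 ± 0.12 (SE), adjusted p = 0.00621). Ndrg1, Niban1 and Slc30a4 fell; for Ndrg1 the values were log2 difference -3.10 ± 0.14 (SE), adjusted p = 0.0041. Mitosis and spindle genes fell in 28 of 31 and rose in 0, beside 9.36% of all genes. Bub1 was among them (log2 difference -2.53 ± 0.15 (SE), adjusted p = 0.00621). The 5 of 12 class II genes that rose included Cd74 (log2 difference 1.83 ± 0.21 (SE), adjusted p = 0.0109), and 1 fell, the regulator gene Rfx5 (log2 difference -0.71 ± 0.12 (SE), adjusted p = 0.0223). Cholesterol genes fell in 2 of 19 only, and Hmgcs1 did not pass (adjusted p = 0.076). Thbs1 and Serpinb2, which were lower at 24 h in CD14-deficient cells, did not pass either, with adjusted p = 0.35 for Thbs1 and 0.259 for Serpinb2. Tnf and Il6 had adjusted p-values of 0.164 and 0.0718. Leaving out the wild-type arrays, which leaves 1 residual degree of freedom, no gene passed, and 909 rose and 808 fell at an unadjusted p under 0.05. Without the EGTA arrays 219 genes rose and 244 fell, and without the CD14-deficient arrays 1143 rose and 1061 fell, each with 1 residual degree of freedom. With no filter on dim genes 19 rose and 5 fell, and with the intensities as deposited 284 rose and 302 fell.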

How the data were processed

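The authors deposited linear intensities of 22690 Affymetrix probe sets on 8 arrays, made with MAS5 per the submitters' processing notes. The array build and the scaling step are not given in the sources used here. Per the platform table, 20393 probe sets named 1 gene, 691 several and 1606 were unlisted; of 2246 left unnamed, 940 were compared, with 62 higher and 41 lower.

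The deposited intensities were quantile normalized over the 8 arrays, floored at the 40th percentile (38.4) and taken to log2 values. Each of 12394 genes was represented by its probe set of highest mean. Genes whose brighter array of a pair exceeded the overall median (88.2) were compared. Of 756 called genes, 259 had several bright probe sets. In 1 gene another bright probe set had the opposite sign with a log2 difference of at least 0.5 in size. Smaller opposite differences were not counted.

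Fits used limma 3.58.1 in R 4.3.3 with Benjamini-Hochberg adjustment, tested on simulated data. Precision is limited by 1 array per group. Members and the 45 pathway lists were chosen with earlier results of these data known. Named were the 10 largest differences and 5 largest bounds in each direction, up to 3 members per list, the genes most alike or opposite over the 3 conditions and 25 fixed response genes. Further list members, and the genes at thresholds, were named after their values were seen. Alternatives were deposited intensities, equal medians, floors at the 20th and 50th percentiles, no filter or the 75th percentile, means over probe sets and leaving out a condition. Promoter sequences came from RefSeq (GRCm38.p6).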

Additional observations from a re-analysis of the deposited data

Results flagged for a closer look

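In all, 10 genes differed at least 2-fold between 24 h and 6 h in opposite directions in 2 conditions, with 1 array per point, and none of these differences was tested. Higher in wild type and lower in CD14-deficient cells were 5 genes. Thbs1 was at 92.1 after 24 h against 259.5 after 6 h in CD14-deficient cells, a log2 difference of -1.49, and at 992 after 24 h against 149 after 6 h in wild type. Gprc5b, an orphan receptor gene, was at 79.1 after 24 h against 194 after 6 h in CD14-deficient cells, a log2 difference of -1.29, and at 444 after 24 h against 208 after 6 h in wild type. Clec2d was at 218 after 24 h against 500.3 after 6 h in CD14-deficient cells, a log2 difference of -1.20, and at 379 after 24 h against 183 after 6 h in wild type. Ets2 was at 408 after 24 h against 930.5 after 6 h in CD14-deficient cells, a log2 difference of -1.19, and at 588 after 24 h against 279.6 after 6 h in wild type. Vcam1 was at 165 after 24 h against 344 after 6 h in CD14-deficient cells, a log2 difference of -1.06, and at 1218 after 24 h against 275 after 6 h in wild type. In Thbs1, Clec2d, Ets2 and Vcam1 the CD14-deficient array was above the wild-type one at 6 h and below it at 24 h.

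Lower in wild type and higher in CD14-deficient cells were 4 genes. Rgs18 was at 1067 after 24 h against 363 after 6 h in CD14-deficient cells, a log2 difference of 1.56, and at 271 after 24 h against 750.2 after 6 h in wild type. Nrp1 was at 1591 after 24 h against 649 after 6 h in CD14-deficient cells, a log2 difference of 1.29, and at 355 after 24 h against 872 after 6 h in wild type. Mef2c, a transcription factor gene, was at 411 after 24 h against 173 after 6 h in CD14-deficient cells, a log2 difference of 1.25, and at 95.4 after 24 h against 223 after 6 h in wild type. Scd2 was at 7017 after 24 h against 3431 after 6 h in CD14-deficient cells, a log2 difference of 1.03, and at 655 after 24 h against 2424 after 6 h in wild type. In each of them the CD14-deficient 24 h value was the highest of these 4 values.

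Slc30a3, a zinc transporter gene, was at 138 after 24 h with EGTA against the floor after 6 h, and at the floor after 24 h against 133 after 6 h in wild type. Its log2 difference of 1.84 with EGTA is a bound, as 1 value is at the floor. The wild-type difference is a bound as well, and all 4 values are dim or at the floor.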

How the results depend on the processing

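No paired analysis was possible by replicate number because the labels give none and each group has 1 array. The fit over 3 conditions sets 24 h against 6 h within each condition. Of 18 summary values, 17 moved with the intensities as deposited. Genes higher and lower at 24 h were then 110 and 1269 in wild type and 1083 and 165 with EGTA, and 513 were higher in CD14-deficient cells. Wild-type higher genes were shared at 99.0% with EGTA and 67.0% in CD14-deficient cells, and lower genes at 14.7% and 19.2%. Wild-type higher genes that had been lower at 6 h made up 62.7% with EGTA and 28.2% in CD14-deficient cells, and lower genes that had been higher 8.59% and 8.83%. The fit over 3 conditions gave 284 and 302 genes, and 2 lists had at least 25% of members higher and 16 lower. The arrays' scaling thus sets the balance of directions. With a filter at the 75th percentile, which tests fewer genes, the counts were 180 and 180 in wild type, 174 and 181 with EGTA and 140 and 211 in CD14-deficient cells. The shared share of higher genes with EGTA was 70.3%, and the shares by 6 h position were 36.1%, 15.0% and 28.3%. Without a filter 65.6% of lower genes were shared with EGTA and 36.5% of higher genes in CD14-deficient cells, the fit gave 19 and 5 genes, and 3 lists had 25% higher, as with a floor at the 50th percentile (3). With equal medians 35.2% of higher genes were shared in CD14-deficient cells. The fit gave 0 and 0 genes without the wild-type arrays, where limma called 909 and 808 at an unadjusted p under 0.05, 219 and 244 without the EGTA arrays, and 1061 lower without the CD14-deficient arrays. The cause of these changes was not tested. None of the named genes with a 2-fold difference turned in sign under the scaling, floor, filter and probe set alternatives. Of 56 other named genes, 5 turned as deposited (Acod1, Gbp7, Ifnb1, Il1b and Il1rn) and 5 with equal medians (Cxcl10, Ifi47, Ldha, Nfkbia and Tnf). Of the named called genes, 23 of 123 moved as deposited, 12 of 125 with the higher floor, 7 of 121 with means over probe sets and 1 of 125 with equal medians. Dim genes are limited by the floor, so that 76 called genes have bounds only.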
